A study of Homo sapiens with 24 samples.

Results

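Start codon windows are the short stretches of mRNA, at most 100 bases long, that the submitters' window lists annotate as the beginning of a coding sequence. They were followed across 6 eCLIP experiments in HEK293 cells, a line derived from human embryonic kidney. In eCLIP, RNA crosslinked to a protein is immunoprecipitated (IP) and sequenced, and its reads per window are compared with those of an input library that skipped the immunoprecipitation. Each experiment gave 1 list of windows enriched in IP over input, and every window whose feature type was the start codon was taken, which is a choice that uses no measured binding value. The 6 lists held 3897 distinct start codon windows among 225825 distinct windows. The experiments were SNRNP200 in the cytoplasm of cells given 500 µM arsenic, SNRNP200 in the cytoplasm of untreated cells, SNRNP200 in whole cells given 500 µM arsenic, SNRNP200 in untreated whole cells, CAPRIN and G3BP1. The labels give no treatment except for the arsenic samples, and "untreated" is used here in that sense. Each had 2 IP and 2 input libraries, 24 in all. The groups thus share the cell line and differ in the protein, the fraction and arsenic. The labels do not say which CAPRIN protein was targeted, how long arsenic was given, or whether the 2 replicates were separate cultures, so p-values measure only the spread between these libraries, which may be technical.

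A start codon is found by the small ribosomal subunit, which loads near the cap of an mRNA with initiation factors and scans along the 5′ untranslated region (UTR) until the initiator tRNA pairs with an AUG. Recognition is favoured by a purine placed a codon's length upstream of the AUG and by a G directly after it, the context named after Kozak. SNRNP200 is the helicase of the U5 small nuclear ribonucleoprotein that separates U4 from U6 RNA as the spliceosome is activated, a nuclear process, whereas G3BP1 and its partner CAPRIN1 are cytoplasmic RNA-binding proteins that nucleate stress granules when initiation is blocked, as it is by arsenite.

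The windows begin at the start codon itself and run downstream. RefSeq promoter sequences (GRCh38.p14, which has the hg38 coordinates of the lists) cover 250 bases before to 50 bases after a gene's start, and 3288 of the 3897 windows matched a gene of that table. The first base of 494 of them lay inside the sequence given, and 490 of these (99.2%) read ATG there. In all 58 windows under 100 bases whose end could be read, the next 2 bases were GT, the letters that open most introns. The sequences below show, in capitals, the first codon of windows described later, with up to 12 bases before it and up to 15 after it, 5′ to 3′ on the coding strand. Those of RPS6, GSTP1 and NELFB are shown for their edges.
H2AC17 (chr6:27893136-27893161, minus strand): ggtcgttttaccATGtctggacgtgg
H2AC13 (chr6:27808198-27808222, plus strand): aggccttttgccATGtctgggcgtg
H4C4 (chr6:26189063-26189088, minus strand): tgtggtttcaagATGtctggccgcgg
H4C5 (chr6:26204633-26204659, plus strand): ggtgtgttggtcATGtctggtcgcggc
H3C2 (chr6:26032050-26032072, minus strand): tgtggttttgccATGgctcgtac
COX5B (chr2:97646075-97646104, plus strand): gtcgcggacgcaATGgcttcaaggttactt
CCT5 (chr5:10250329-10250358, plus strand): ggttgttgcaccATGgcgtccatggggacc
NME4 (chr16:397211-397240, plus strand): gggccgggcgtcATGggcggcctcttctgg
TXNDC5 (chr6:7910759-7910788, minus strand): agccccgccgcgATGcccgcgcgcccagga
HACD3 (chr15:65530620-65530649, plus strand): ggcagtgtggccATGgagaatcaggtgttg
RPS6 (chr9:19380187-19380207, minus strand): agctgcttcaagATGaaggta
GSTP1 (chr11:67583832-67583861, plus strand): gtcttcgccaccAgtgagtacgcgcggccc
NELFB (chr9:137255354-137255376, plus strand): ggcgggcgggacCTGgccgagct
The RPS6 window, in the mRNA of a small-subunit ribosomal protein, was 6 bases long and ended before the letters gt of an intron. The window of GSTP1, a glutathione transferase, was 1 base long, the capital A, from a start codon that an intron splits; its values were 4.16 and 6.78 in arsenic whole cells and 6.41 and 6.56 in untreated whole cells. NELFB, a subunit of the negative elongation factor, was 1 of 4 windows that did not read ATG. Of the 484 ATG whose context could be read, 445 (91.9%) had a purine 3 bases upstream, 68.4% had G directly after the ATG and 64.3% had both. Over every ATG in all promoter sequences of the table, 113080 in all, these shares were 54.3%, 28.6% and 16.5%. These readable start codons lie close to a gene's start and so do not stand for all 3897.

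The 6 lists differ in ways that touch what follows. The summed IP reads in listed windows were 358572 for SNRNP200 in arsenic cytoplasm, 189220 in untreated cytoplasm, 5567969 in arsenic whole cells and 8092831 in untreated whole cells, with 635845 for CAPRIN and 186540 for G3BP1. The 2 arsenic lists carried nearly the same input reads although the labels give each its own input libraries: of 882 windows in both lists, 87.2% had identical input counts, and so had 56 of the 60 shared start codon windows, with a largest difference of 2 reads. No other pair of lists exceeded 14.4% over all windows. The submitters' log2 enrichments in the 2 arsenic lists therefore do not rest on separate inputs. Whether the shared counts come from cytoplasmic or whole cell input cannot be told apart, so a comparison of an arsenic list with its untreated list may set unlike inputs against each other. The G3BP1 list holds 2 sets of windows, with values from up to 2 and up to 3 replicates, although the labels name 2. Intron windows made up 0.546% and 1.08% of the cytoplasmic SNRNP200 lists with and without arsenic, against 51.9% and 49.0% of the whole cell lists. Of 8 genes chosen as HEK293 markers, 3 (VIM, CDH2 and NEFL) had a window in some list, and none of 6 blood or 5 liver marker genes did.

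With arsenic, start codons took a larger share of the cytoplasmic SNRNP200 list than without it. There were 400 start codon windows among 6773 (5.91%, 95% exact binomial interval 5.36% to 6.49%) with arsenic and 66 among 4182 (1.58%, 1.22% to 2.00%) without, with the limit on the arsenic inputs given above. The whole cell lists had similar shares, with 1717 of 117690 windows (1.46%, 1.39% to 1.53%) with arsenic and 2798 of 182066 (1.54%, 1.48% to 1.59%) without. CAPRIN had 693 of 15831 (4.38%, 4.06% to 4.71%) and G3BP1 had 136 of 3023 (4.50%, 3.79% to 5.30%). Windows of a list share its libraries, so the intervals cover counting error only and the shares were not tested. In bulk libraries, binding in fewer cells and less RNA bound per cell cannot be told apart.

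Whole cell lists are rich in introns, so the shares were also taken among mRNA exon windows, meaning 5′ UTR, start codon, coding sequence, stop codon and 3′ UTR. On that scale start codons made up 6.03% in arsenic cytoplasm and 1.62% in untreated cytoplasm, 3.51% in arsenic whole cells and 3.42% in untreated whole cells, 4.79% for CAPRIN and 5.29% for G3BP1. Start codon windows outnumbered stop codon windows in arsenic cytoplasm, with 1.51 for each stop codon window, whereas untreated cytoplasm had 0.55. The ratio was 1.42 and 1.24 in whole cells with and without arsenic, 0.975 for CAPRIN and 1.10 for G3BP1. The larger share in arsenic cytoplasm was not particular to start codons. There 1184 of 6773 windows were 5′ UTR windows, against 207 of 4182 in untreated cytoplasm, while 3′ UTR windows numbered 3084 and 2825. By genes, 393 of 2472 genes with any listed window (15.9%) had a start codon window in arsenic cytoplasm and 69 of 1818 (3.795%) in untreated cytoplasm.

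**Figure D1:**
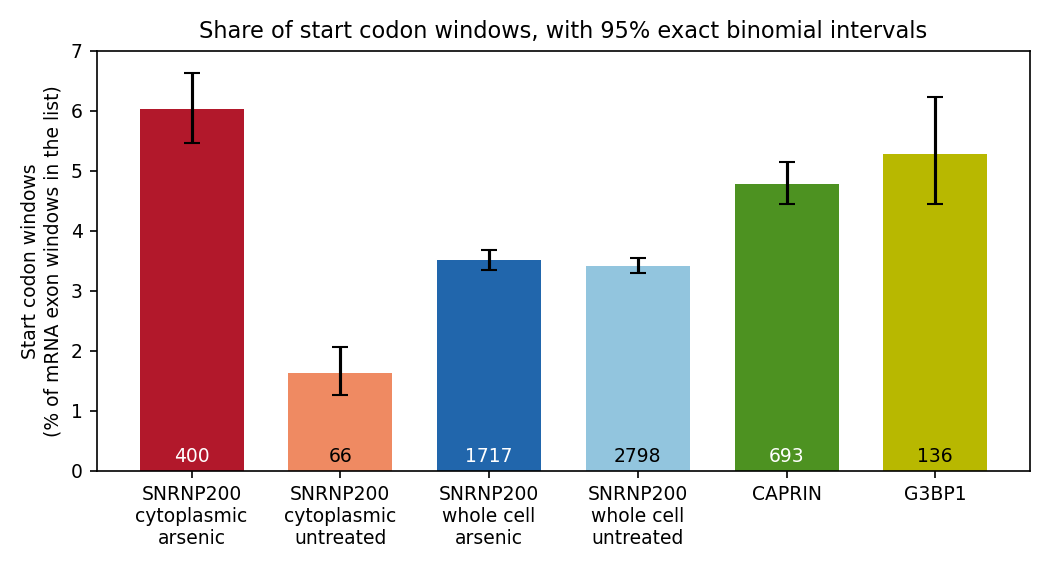
Start codon windows as a percentage of the mRNA exon windows (5′ UTR, start codon, coding sequence, stop codon, 3′ UTR) of each of the 6 lists, with 95% exact binomial intervals as error bars and the number of start codon windows at the foot of each bar. The cytoplasmic arsenic list stands highest at 6.03% and the cytoplasmic untreated list lowest at 1.62%, while the whole cell lists lie at 3.51% and 3.42%.

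Base composition and input depth moved with this difference. The median GC fraction of start codon windows was 0.66 in arsenic cytoplasm and 0.577 in untreated cytoplasm, 0.506 in arsenic and 0.51 in untreated whole cells, 0.70 for CAPRIN and 0.67 for G3BP1. Among mRNA exon windows with a GC fraction of 0.65 or more, start codons were 13.5% (interval 11.9% to 15.2%) in arsenic cytoplasm and 8.94% (5.20% to 14.1%) in untreated cytoplasm, so within this class the intervals overlap. Between 0.5 and 0.65 the shares were 6.67% (5.67% to 7.79%) with arsenic and 2.85% (2.07% to 3.82%) without, and under 0.5 they were 1.12% (0.763% to 1.59%) with arsenic and 0.294% (0.118% to 0.605%) without, so the intervals are apart in both classes. Between 0.5 and 0.65 with at least 10 input reads they were 7.40% (6.14% to 8.81%) with arsenic and 5.15% (2.97% to 8.22%) without, which overlap, and with fewer input reads 5.01% (3.49% to 6.93%) with arsenic and 2.26% (1.49% to 3.27%) without, which do not. The median input was 14 reads per start codon window in arsenic cytoplasm and 5.5 in untreated cytoplasm, and 12.1% of the untreated windows had no input read, against 0% of the 400 arsenic windows. The part of GC and depth in the difference was not tested further.

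In each of the 6 lists the median start codon window was less enriched than the median window of all types. For G3BP1 this rests on its set with up to 2 replicates. The log2 enrichment given by the submitters had a median of 3.55 in the start codon windows of arsenic cytoplasm, against 3.97 over all windows of that list. It was 2.65 against 3.01 in untreated cytoplasm, 3.27 against 3.60 in arsenic whole cells and 3.20 against 3.46 in untreated whole cells. For CAPRIN it was 3.32 against 3.71, and for G3BP1 3.995 against 4.22. The G3BP1 medians cover the 56 start codon windows and 1254 windows of all types in the set with up to 2 replicates. In each list the 5′ UTR and coding sequence medians also lay below the median of all windows. Within the same gene, the highest start codon value was set beside the median of the gene's windows of another type. This favours the start codon where a gene has several start codon windows. In arsenic cytoplasm 183 genes had both a start codon and a 3′ UTR window, and the start codon was the higher in 28.4% of them, against 12 of 40 genes in untreated cytoplasm. Set against coding sequence windows of the same gene, it was the higher in 49.75% of 203 genes in arsenic cytoplasm. For CAPRIN the start codon was the higher in 25.4% of 417 genes against 3′ UTR windows, with a median difference of -0.96. Against coding sequence windows it was the higher in 41.5% of 463 CAPRIN genes, and against 5′ UTR windows in 62.4% of 165. Against 3′ UTR windows in whole cells, the start codon was the higher in 64.25% of 635 genes without arsenic, with a median difference of 0.44. With arsenic it was the higher in 55.8% of 337 genes.

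Start codon windows were shorter in whole cells than in the other lists. In whole cells 61.4% of start codon windows with arsenic and 55.8% without were shorter than 100 bases, that is, the first coding exon ended within them. In arsenic cytoplasm this was 22.25%, in untreated cytoplasm 16.7%, for CAPRIN 21.9% and for G3BP1 16.9%. Shorter windows also had the higher enrichment in whole cells: the median log2 value was 3.49 in windows under 100 bases and 2.96 in those of 100 bases with arsenic, and 3.39 and 2.97 without. In arsenic cytoplasm the medians were 3.51 in windows under 100 bases and 3.56 in those of 100 bases.

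In whole cells many start codon windows were followed by a listed intron window. An intron window directly followed the start codon window, in the same list, in 523 of 1717 cases (30.5%) with arsenic and 848 of 2798 (30.3%) without. This occurred in none of the 400 and 66 windows of the cytoplasmic lists and none of the 136 of G3BP1, and in 2 of 693 for CAPRIN. Where both were listed in arsenic whole cells, the start codon window was lower than the intron window by a median of 0.47 log2 units and higher in 33.7% of pairs. Coding sequence windows had it at a like share: 33.3% of coding sequence windows in arsenic whole cells and 31.8% in untreated whole cells were followed by a listed intron window.

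In arsenic cytoplasm the neighbour listed was more often upstream. A 5′ UTR window directly before the start codon was listed in 113 of 400 cases (28.25%) in arsenic cytoplasm and in 7.58% in untreated cytoplasm, and that 5′ UTR window had the higher value in most arsenic pairs, the start codon being higher in 37 of 113. For CAPRIN the neighbour listed was more often downstream, with a coding sequence window after it in 22.8% and a 5′ UTR window before it in 14.4%, and G3BP1 had 27.2% and 9.56%. Most start codon windows outside whole cells stood alone, with neither neighbour listed in 61.75% in arsenic cytoplasm, 78.8% in untreated cytoplasm, 66.2% for CAPRIN and 66.9% for G3BP1.

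**Figure D2:**
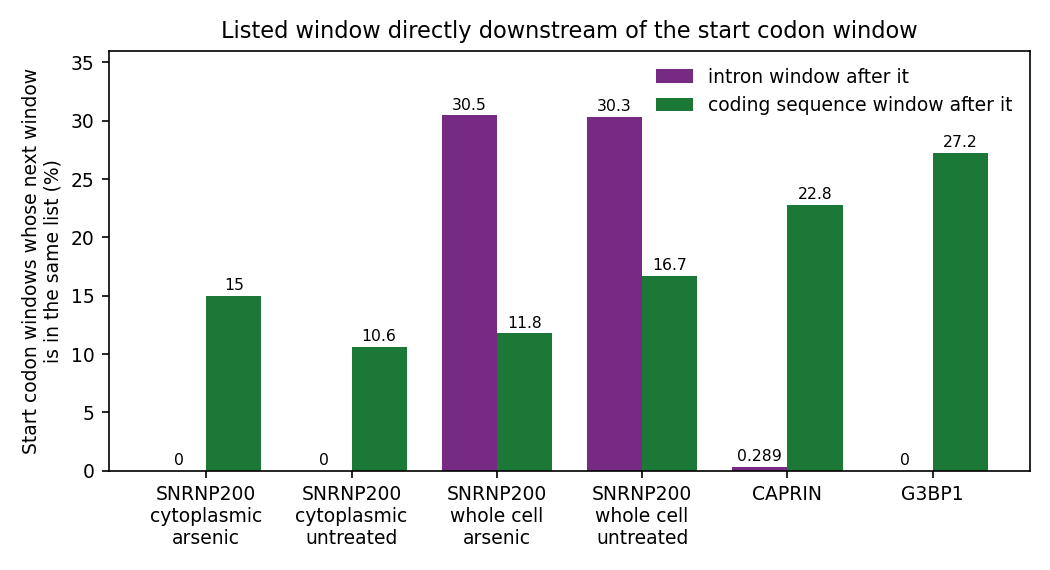
Percentage of start codon windows whose directly following window is listed in the same list, as an intron window (purple) or a coding sequence window (green), for each of the 6 lists. Intron windows follow 30.5% and 30.3% of start codon windows in whole cells with and without arsenic and almost none elsewhere, while coding sequence windows follow 27.2% for G3BP1 and 22.8% for CAPRIN.

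Replication-dependent histone mRNAs, which have no introns and no poly(A) tail, had the highest share of genes with a start codon window among the gene groups examined in arsenic cytoplasm, for CAPRIN and for G3BP1. In arsenic cytoplasm 30 of the 37 histone genes with any listed window (81.1%) had one at the start codon, and in untreated cytoplasm 3 of 11. The count was 0 of 10 in arsenic whole cells and 5 of 20 in untreated whole cells, 31 of 46 (67.4%) for CAPRIN and 23 of 43 (53.5%) for G3BP1. Over all genes these shares were 15.9%, 3.795%, 19.8%, 28.65%, 15.7% and 11.2% in the same order. Histone copies are nearly identical in sequence, and the sources used here do not give how reads matching several copies were assigned, so single histone genes are uncertain.

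H2AC17, a histone H2A gene, had the highest CAPRIN value of any start codon window. It had log2 enrichments of 7.31 and 7.996 in the 2 CAPRIN replicates, from 550 IP and 2 input reads, against a range of 3.55 to 4.18 over 3 replicates for G3BP1, from 483 and 86 reads. H2AC13, also a histone H2A gene, had 6.58 and 7.22 for CAPRIN and 2.91 to 3.07 over 3 replicates for G3BP1. The G3BP1 values come from the set with up to 3 replicates, so the levels are set side by side and not compared. In arsenic cytoplasm H2AC17 had a mean of 2.84, and H3C2, a histone H3 gene, had 3.53 and 3.91.

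Ribosomal protein mRNAs, many of which carry an oligopyrimidine tract at their 5′ end, had start codon windows in 28 of 73 genes in arsenic cytoplasm (38.4%), 3 of 23 in untreated cytoplasm, 26 of 82 in arsenic whole cells (31.7%), 44 of 84 in untreated whole cells (52.4%), 21 of 72 for CAPRIN and 8 of 46 for G3BP1. Their start codon windows were often short, 22 of 34 in arsenic cytoplasm and 48 of 56 in untreated whole cells being under 100 bases. RPS2, a small-subunit protein, had the highest value in arsenic whole cells among windows with at least 10 input reads and the third highest in untreated whole cells, with 5.51 and 5.80 in arsenic whole cells from 887 IP reads and 5.02 and 5.52 in untreated whole cells from 1375. Genes of the ribosomal protein family have many processed pseudogenes, so their counts are uncertain where reads match more than 1 copy.

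Nuclear genes for oxidative phosphorylation had start codon windows most often in CAPRIN, in 27 of 57 genes with any window (47.4%), and in 5 of 19 for G3BP1. In arsenic cytoplasm it was 15 of 50, in untreated cytoplasm 0 of 7, in arsenic whole cells 8 of 68 (11.8%) and in untreated whole cells 26 of 79 (32.9%). COX5B, a subunit of cytochrome c oxidase, had 5.51 and 6.23 for CAPRIN from 55 IP reads and no input read, and 3.63 and 3.78 in arsenic cytoplasm. CYC1, cytochrome c1 of complex III, had 4.52 and 4.91 for CAPRIN and 4.79 and 5.11 for G3BP1, whose ranges overlap.

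Proteins of RNA processing and of stress granules had start codon windows more often in whole cells than elsewhere, as did all genes, at 19.8% in arsenic and 28.65% in untreated whole cells and at most 15.9% in the other lists; the difference from all genes was not tested. For SR and hnRNP proteins, which regulate splicing, the counts were 5 of 29 genes in arsenic cytoplasm, 2 of 30 in untreated cytoplasm, 18 of 35 in arsenic whole cells, 22 of 38 in untreated whole cells, 7 of 37 for CAPRIN and 3 of 25 for G3BP1. For stress granule proteins they were 3 of 26, 1 of 23, 21 of 39, 22 of 39, 5 of 31 and 1 of 16 in the same order. The mRNA of G3BP1 itself had a start codon window in whole cells, at 2.29 and 2.49 with arsenic and 1.88 and 2.60 without, and none for CAPRIN or G3BP1. SNRNP200 and CAPRIN1 mRNA had no start codon window in any list.

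Translation factors had start codon windows in 9 of 30 genes in arsenic cytoplasm, 5 of 19 in untreated cytoplasm, 20 of 48 in arsenic whole cells, 28 of 48 in untreated whole cells, 8 of 37 for CAPRIN and 2 of 23 for G3BP1. Proteasome subunits had 4 of 23, 0 of 7, 17 of 41, 15 of 43, 10 of 35 and 1 of 9 in the same order, and chaperones and oxidative stress genes 1 of 30, 0 of 22, 12 of 40, 13 of 37, 5 of 26 and 2 of 8. Small lists with few listed genes were the chaperonin subunits (0 of 8, 0 of 5, 3 of 8, 4 of 8, 4 of 8 and 2 of 5), the 14-3-3 proteins (4 of 6, 0 of 3, 2 of 6, 3 of 6, 2 of 6 and 0 of 2), glycolysis enzymes (2 of 11, 0 of 9, 3 of 17, 6 of 16, 5 of 16 and 1 of 11) and actins and tubulins (4 of 7, 3 of 7, 1 of 11, 6 of 10, 5 of 11 and 3 of 7).

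**Figure D3:**
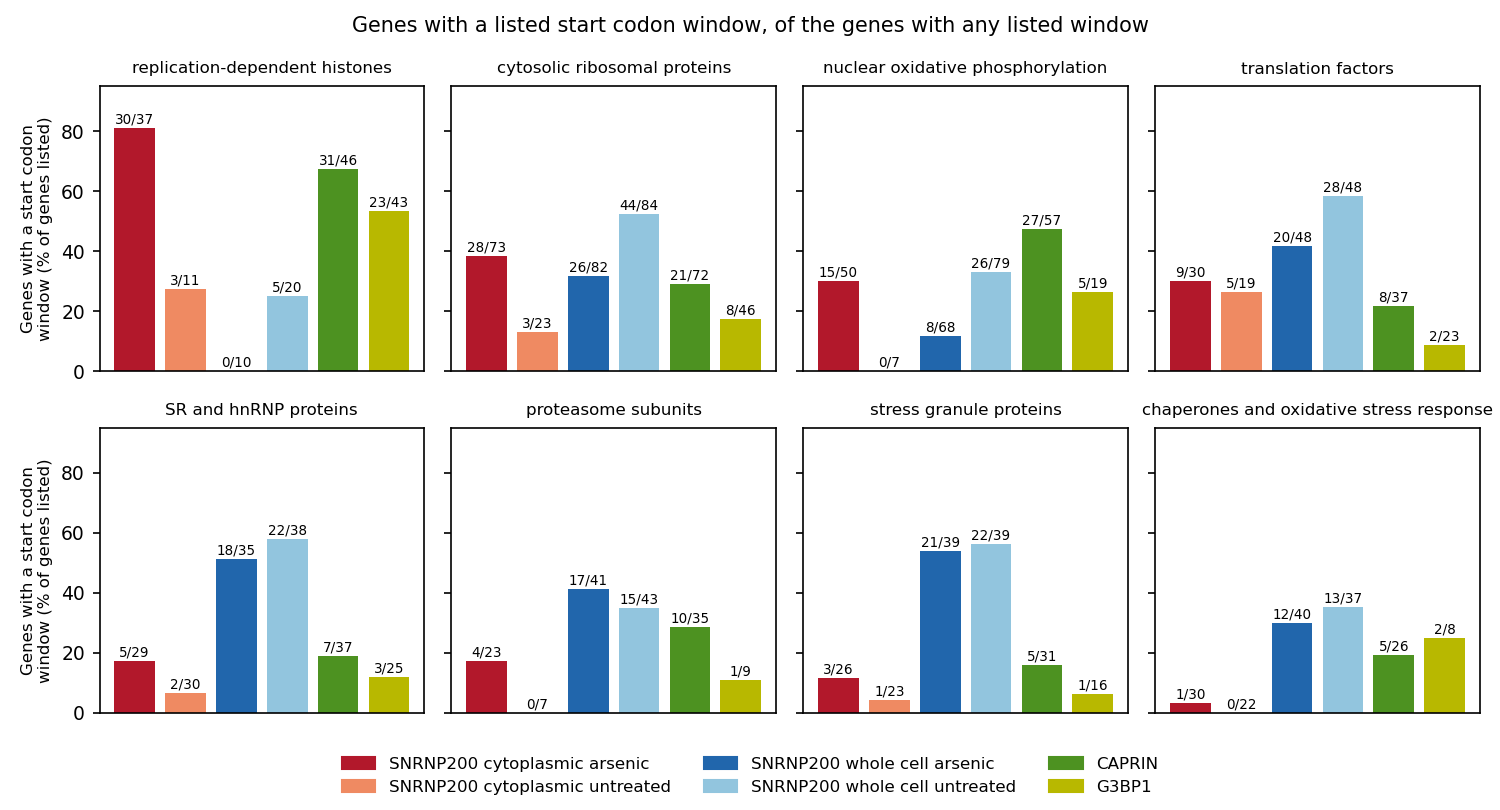
For 8 gene groups, the percentage of genes with any listed window that had a listed start codon window, in each of the 6 lists, with the counts above the bars. Histones reach 81.1% in the cytoplasmic arsenic list and 0% in the whole cell arsenic list, while SR and hnRNP proteins and stress granule proteins are highest in whole cells.

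The cytoplasmic lists with and without arsenic shared 24 start codon windows, which is 6.0% of the arsenic list and 36.4% of the untreated list, against 15.7% and 25.5% over all windows, while 60 of the 400 arsenic windows were also listed in arsenic whole cells and 167 for CAPRIN. In all of those 24, the replicate mean was higher with arsenic, with a median difference of 2.19 log2 units. The median over all 1065 shared windows was 2.00, so start codons lay 0.20 above the general shift. Only windows listed in both lists enter. The lowest listed mean over all windows was 1.92 in arsenic cytoplasm and 1.155 in untreated cytoplasm, so low arsenic values could not enter. The part of this in the shift was not tested. Replicate ranges were apart in 21 of the 24, all higher with arsenic and 0 lower, against 71.4% higher and 0.751% lower over all shared windows. With limma, 0 of the 24 passed an adjusted p of 0.05 (0% of all 1065 windows were called), and 7 had an unadjusted p under 0.05 against 312 of all. A variance that follows the mean called 8 of the 24 higher, and 127 of all windows. At 2 replicates, planted changes of 3 and 5 log2 units were recovered in 4% and 52% of windows in a simulation of this comparison.

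H4C4, a histone H4 gene, had the widest of these differences, with 3.63 and 4.84 in arsenic cytoplasm and 1.14 and 1.17 in untreated cytoplasm. Its IP reads were 93 with arsenic and 132 without, over 40 and 55 input reads, and the enrichment, which the submitters scaled within each experiment, was the higher with arsenic. The difference was 3.08 ± 1.18 (SE; limma adjusted p = 0.147). H4C5, another histone H4 gene, had 3.29 and 3.85 with arsenic and 1.14 and 1.43 without. MAZ, a zinc finger transcription factor, had 4.35 and 5.67 with arsenic and 1.78 and 2.24 without, a difference of 3.01. TUBB, a beta-tubulin, had 5.59 and 6.14 with arsenic and 1.76 and 4.01 without, a difference of 2.97. RACK1, a scaffold protein of the small ribosomal subunit, had 3.37 and 6.61 with arsenic and 1.72 and 2.53 without, a difference of 2.87 at a limma adjusted p of 0.160. CD81, a tetraspanin, had 3.97 and 5.27 with arsenic and 1.68 and 1.94 without. In each of these genes the arsenic replicates lie above the untreated ones, and in none of them did the test pass. Relative to the shift of all shared windows, the differences were 1.08 for H4C4, 1.011 for MAZ, 0.98 for TUBB, 0.87 for RACK1 and 0.81 for CD81.

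**Figure D4:**
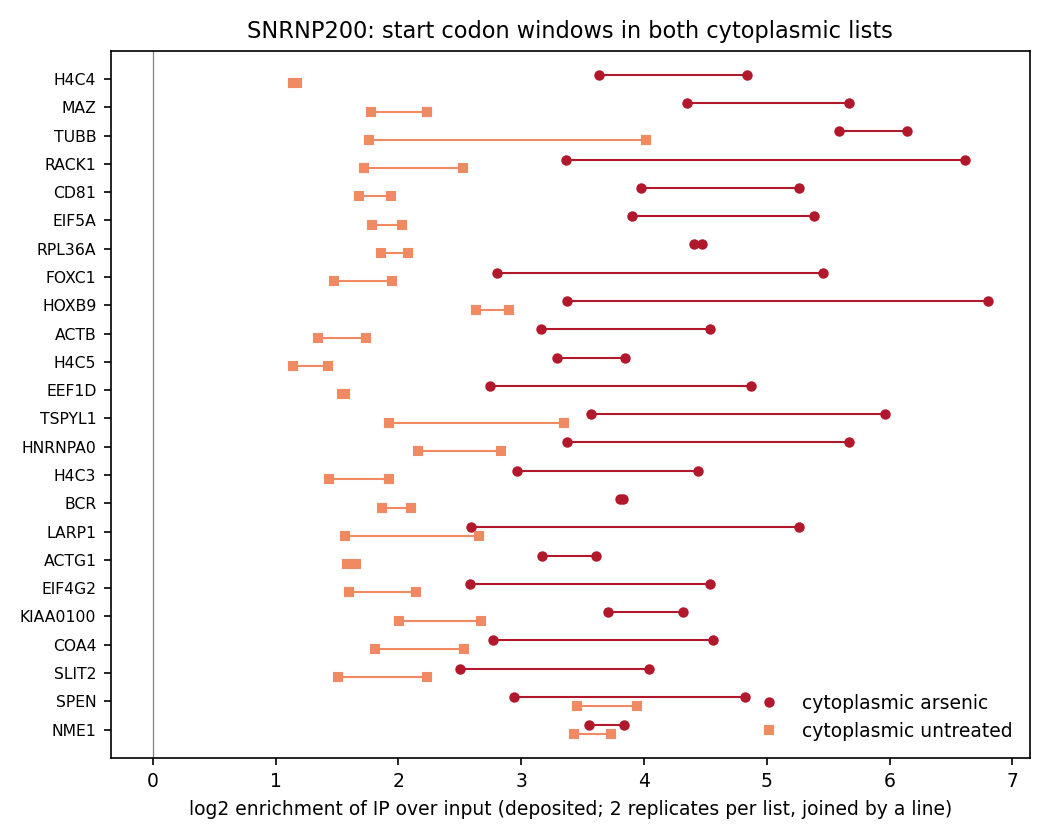
Log2 enrichment of IP over input, as deposited, in each of the 2 replicates for the 24 start codon windows listed in both cytoplasmic SNRNP200 lists, with arsenic as red circles above untreated as orange squares, sorted by difference. In 21 of 24 windows the lines joining the replicates do not overlap; LARP1, SPEN and NME1, with overlapping ranges, are the exceptions.

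In whole cells the overlap of start codon windows between conditions was close to that of all windows. Of the 1717 arsenic windows, 1352 (78.7%) were also listed without arsenic, and these are 48.3% of the 2798 untreated windows, against 77.4% and 50.1% over all windows. The median difference was -0.06 log2 units, against -0.01 over all 91143 shared windows, and at q under 0.05 it was 0.14, against 0.19 over all. Replicate ranges were apart in 189 windows higher with arsenic and 247 lower, against 15.6% and 16.9% of all shared windows. None of the 1352 passed with limma (0% of all windows), and 58 had an unadjusted p under 0.05, against 4076 of all. In a simulation of this comparison, 22% of planted changes of 3 log2 units and 92% of those of 5 were called, with 3 false calls among all windows.

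The windows with the widest differences had few input reads in at least 1 list. FBXW11, an F-box protein of a ubiquitin ligase, had 6.44 and 6.56 in arsenic whole cells (81 IP reads, no input read) and 3.17 and 3.78 in untreated whole cells (84 and 8), a difference of 3.02 ± 0.84 (SE; limma adjusted p = 0.9998). TXN, thioredoxin, the small redox protein, had 4.31 and 5.83 with arsenic and 1.76 and 2.97 without, from 1 and 11 input reads. SLC1A5, a glutamine transporter, had 4.91 and 8.30 with arsenic and 3.85 and 3.93 without. FAF1, a ubiquitin-binding adaptor, had 4.70 and 6.95 with arsenic and 2.93 and 3.30 without, and LSM1, a subunit of the cytoplasmic LSM ring of mRNA decay, 5.11 and 5.59 with arsenic and 1.94 and 3.40 without. These windows are higher with arsenic in both replicates. Their IP reads are not compared, since the listed windows held 5567969 IP reads with arsenic and 8092831 without. At the other end, HSF2, a heat shock transcription factor, had 2.09 and 2.49 with arsenic and 4.36 and 5.37 without, from 8 and 1 input reads. MED4, a subunit of the Mediator complex, had 2.95 and 3.02 with arsenic and 5.25 and 5.85 without. ENOPH1 had 1.97 and 2.39 with arsenic and 4.24 and 6.22 without, and ST13, a co-chaperone of HSP70, 2.26 and 4.002 with arsenic and 5.05 and 6.32 without. In each of these 4 the untreated list had the fewer input reads.

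Between cytoplasm and whole cells, untreated lists shared 26 start codon windows, 39.4% of the cytoplasmic and 0.929% of the whole cell list, against 15.6% and 0.358% over all windows. By class, 44.8% of the cytoplasmic coding sequence windows were shared, 34.2% of stop codon, 27.05% of 5′ UTR and 4.71% of 3′ UTR windows. Arsenic lists shared 60 of the 400 cytoplasmic windows, which are 3.49% of the 1717 whole cell windows, against 13.02% and 0.749% over all windows. Without arsenic the median difference, cytoplasm minus whole cells, was 0.15 over the 26 and 0.19 over all 651 shared windows. Its direction turned with at least 20 IP and 10 input reads, to -0.50 over 12 start codon windows, of which 3 lay above 0, and -0.36 over all windows, and centring gave -0.046. The ranges did not overlap in 8 higher and 6 lower, against 29.8% and 21.2% of all windows. JUN, an AP-1 transcription factor whose gene has no introns, had 2.43 and 3.47 in untreated cytoplasm and 1.39 and 1.48 in untreated whole cells. LIMD1, a LIM domain protein, had 2.55 and 5.17 in untreated cytoplasm and 1.90 and 2.16 in whole cells, and HOXB9, a homeobox factor, 2.63 and 2.90 in cytoplasm and 1.47 and 1.80 in whole cells. NME1, a nucleoside diphosphate kinase, had 3.43 and 3.73 in cytoplasm and 2.22 and 3.06 in whole cells, and SPEN, a transcriptional corepressor, 3.45 and 3.94 in cytoplasm and 2.41 and 3.22 in whole cells. In the other direction, EIF4G2, an initiation factor related to eIF4G whose own translation is known to begin at a GUG codon, had 1.60 and 2.14 in untreated cytoplasm and 3.14 and 3.34 in whole cells, and EEF1D, an elongation factor subunit, 1.54 and 1.57 in cytoplasm and 2.52 and 3.35 in whole cells. EIF4A1, an eIF4A helicase whose window also carries the names of overlapping genes, had 1.56 and 2.21 in cytoplasm and 3.08 and 3.21 in whole cells. MAZ had 1.78 and 2.24 in cytoplasm and 2.35 and 4.11 in whole cells, and CD81 1.68 and 1.94 in cytoplasm and 2.42 and 3.19 in whole cells. None of the 26 passed with limma (0% of all 651 windows), although 4 had an unadjusted p under 0.05, against 114 of all. A simulation of this comparison recovered 51.5% of planted changes of 2 log2 units and 100% of those of 3, with 7 false calls.

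With arsenic the cytoplasmic values were the higher for nearly all shared windows. The median difference, cytoplasm minus whole cells, was 1.32 over the 60 start codon windows and 1.36 over all 882, and ranges did not overlap in 42 higher and 3 lower, against 60.1% and 1.93% of all. None of the 60 passed with limma (0% of all 882), and 12 had an unadjusted p under 0.05, against 166 of all. The 2 lists share nearly all input reads, but their listed windows held 358572 IP reads in arsenic cytoplasm and 5567969 in arsenic whole cells. IP reads of single windows are therefore given as depth only and not compared between the lists. RPS6 had 30 IP reads in arsenic cytoplasm and 42 in arsenic whole cells over the same 31 input reads, with enrichments of 4.17 and 4.55 in cytoplasm and 1.55 and 1.70 in whole cells. YWHAB, a 14-3-3 protein, had 4.50 and 6.65 in arsenic cytoplasm and 2.27 and 2.68 in arsenic whole cells, over the same 8 input reads. NDUFA11, a complex I subunit whose window also carries the name of an overlapping gene, had 3.75 and 5.87 in arsenic cytoplasm and 1.61 and 2.67 in arsenic whole cells, and RPS15, a small-subunit protein, 4.18 and 5.85 in cytoplasm and 1.84 and 2.72 in whole cells. The 20-base RACK1 window had 3.37 and 6.61 in cytoplasm and 1.77 and 2.11 in whole cells. The differences of these 5 genes lie above the median over all shared windows. Against it, TSPAN3, a tetraspanin, had 3.17 and 3.21 in arsenic cytoplasm and 3.92 and 4.07 in arsenic whole cells, with 19 and 231 IP reads over the same 17 input reads. BRD2, a bromodomain protein, had 4.44 and 4.50 in cytoplasm and 4.52 and 5.08 in whole cells, with 19 and 186 IP reads, and HACD3, an enzyme of long-chain fatty acid synthesis, 3.08 and 3.26 in cytoplasm and 3.41 and 3.63 in whole cells. These 3 were the shared windows with non-overlapping ranges that were lower in the cytoplasm.

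The difference between the arsenic effects in the 2 fractions was tested in the 97 windows listed in all 4 SNRNP200 lists, with limma. Of the 5 start codon windows among them none passed, and 1 (EIF5A, 3.26 log2 units higher in the cytoplasm, limma adjusted p = 0.185) had an unadjusted p under 0.05, against 22 of all 97. The other 4 were those of EIF4G2, CD81, SPEN and RACK1.

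Most G3BP1 start codon windows were also listed for CAPRIN. The lists shared 105 start codon windows, 15.2% of the CAPRIN and 77.2% of the G3BP1 start codon windows, against 10.7% and 55.8% over all windows. By class, 79.8% of the G3BP1 stop codon windows were shared, 64.8% of coding sequence, 55.2% of 3′ UTR and 37.3% of 5′ UTR windows. Log2 values were compared in the 45 shared start codon windows that lie in the G3BP1 set with up to 2 replicates. The directions below hold for that set only. The G3BP1 start codon median was 3.995 in that set and 2.52 in the 80 windows listed only in the other set. Shared windows of the other set were not compared. Over the 45 windows CAPRIN minus G3BP1 had a median of -0.50, against -0.41 over all 551 windows compared. Over the 5 windows with at least 20 IP and 10 input reads the median turned to 0.066, with 3 above 0. Replicate ranges did not overlap in 8 higher for CAPRIN and 23 lower, against 25.6% and 41.2% of all. With limma 11 of the 45 passed, 1 higher and 10 lower for CAPRIN, against 25% of all 551 windows, 54 higher and 84 lower. After centring on the shift of all windows 2 were higher and 6 lower, against 72 and 49 of all, and with at least 20 IP and 10 input reads in both lists none of the 5 windows left passed. A simulation of this comparison recovered 78.6% of planted changes of 2 log2 units, with 6 false calls.

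RNF187, a ring-finger ubiquitin ligase, was the window higher for CAPRIN, with 6.53 and 7.20 for CAPRIN and 3.91 and 4.25 for G3BP1, a difference of 2.79 ± 0.53 (SE; limma adjusted p = 0.0104). It had 110 IP reads for CAPRIN and 11 for G3BP1 and no input read in either. Its window was not among those tested with 1 window per gene. HSPA4, a member of the HSP110 chaperone family, was the furthest in the other direction, with 2.40 and 3.14 for CAPRIN and 6.26 and 7.19 for G3BP1, a difference of -3.96 ± 0.58 (SE; limma adjusted p = 0.00556), from 40 IP and 6 input reads for CAPRIN and 83 and 0 for G3BP1. SIRT1, a nuclear deacetylase, had 1.79 and 3.31 for CAPRIN and 5.06 and 5.18 for G3BP1. TXNDC5, a protein disulfide isomerase of the endoplasmic reticulum, had 1.38 and 1.83 for CAPRIN and 3.41 and 4.90 for G3BP1. BRI3BP had 1.91 and 2.62 for CAPRIN and 4.19 and 5.06 for G3BP1, and FAAP20, a Fanconi anaemia core complex protein, 1.97 and 2.32 for CAPRIN and 4.46 and 4.50 for G3BP1. These 4 fell by 2.57, 2.55, 2.36 and 2.34 log2 units for CAPRIN relative to G3BP1. The other 5 called windows were those of BTBD1, STRN4, POLD2, MTHFD1L and NME4, named because they complete the count. All 10 lower windows had at most 3 input reads for G3BP1, and 4 had none, so these enrichments rest on few input reads.

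Among windows higher for CAPRIN that did not pass, USP22, a histone deubiquitinase, had 4.05 and 4.79 for CAPRIN and 2.53 and 3.25 for G3BP1. RPL18 had 3.91 and 4.49 for CAPRIN and 2.698 and 3.10 for G3BP1, C1QBP, a mitochondrial matrix protein, 3.27 and 3.76 for CAPRIN and 2.04 and 2.99 for G3BP1, and CCT5, a chaperonin subunit, 5.18 and 5.66 for CAPRIN and 2.98 and 5.17 for G3BP1. In all 4 the ranges do not overlap, with limma adjusted p-values between 0.0793 and 0.228.

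**Figure D5:**
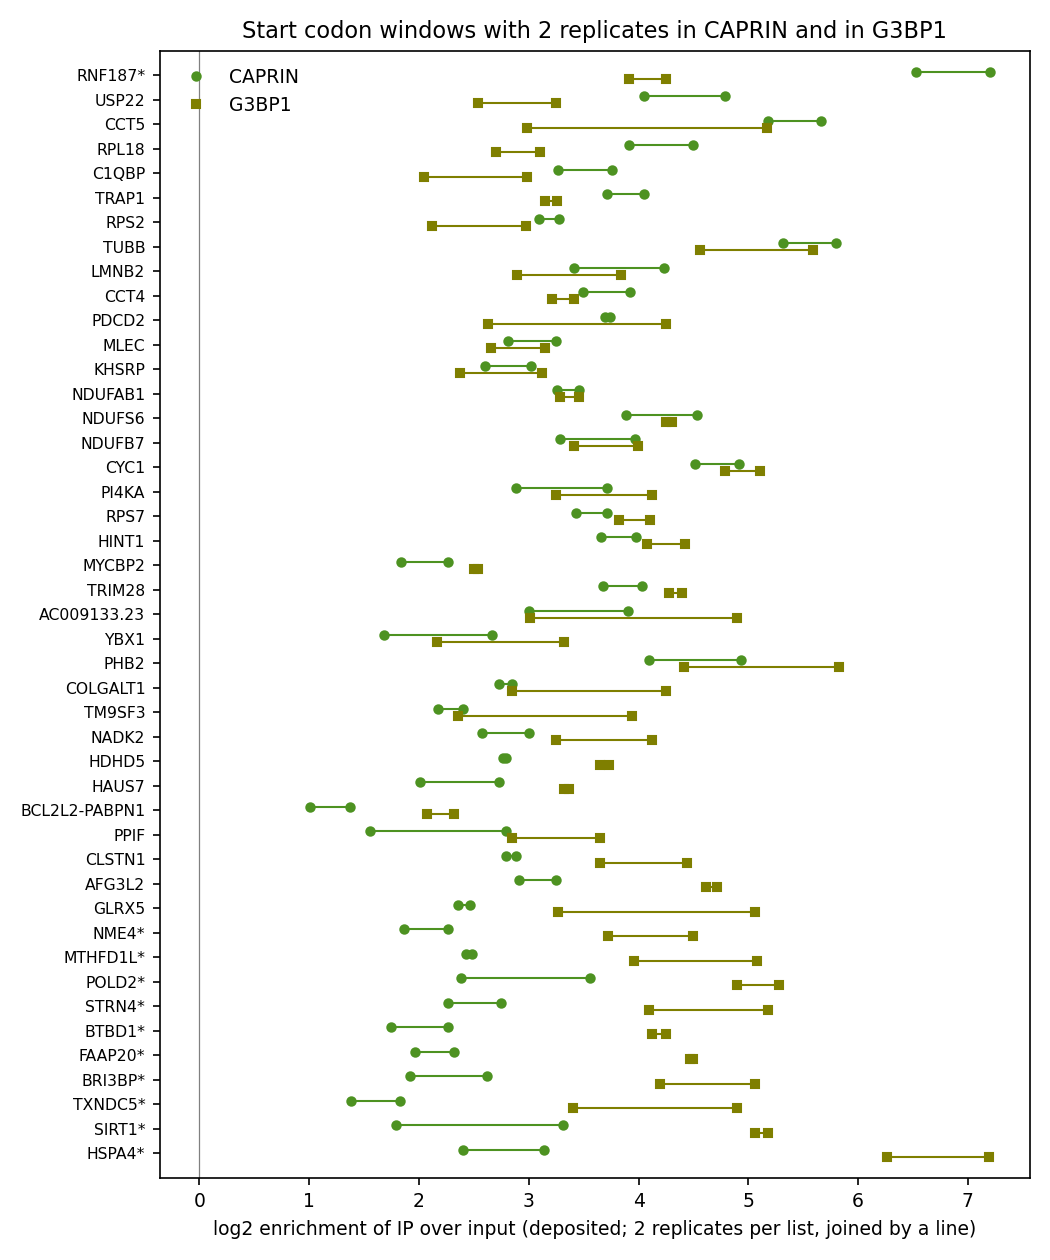
Log2 enrichment of IP over input, as deposited, in each of the 2 replicates for the 45 start codon windows listed for CAPRIN (green circles) and in the G3BP1 set with up to 2 replicates (olive squares), sorted by the difference CAPRIN minus G3BP1. An asterisk marks the 11 windows with a limma adjusted p under 0.05, RNF187 at the top and 10 windows from NME4 to HSPA4 at the bottom.

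CAPRIN start codons also overlapped those of SNRNP200 in arsenic cytoplasm. Of the 400 arsenic windows 167 (41.8%) were listed for CAPRIN, which are 24.1% of the CAPRIN windows, against 35.4% and 15.2% over all windows. By class, CAPRIN also listed 56.6% of the arsenic cytoplasm stop codon windows, 43.25% of coding sequence, 35.02% of 3′ UTR and 20.02% of 5′ UTR windows. The start codon share thus lay below those of stop codon and coding sequence windows. G3BP1 also shared 60 with arsenic cytoplasm, 44.1% of the G3BP1 start codon windows, against 24.8% over all G3BP1 windows. By class, G3BP1 shared 39.55% of its 5′ UTR, 36.3% of stop codon, 31.04% of 3′ UTR and 23.8% of coding sequence windows there. The untreated cytoplasmic list shared 17 of its 66 with CAPRIN (25.8%), below the 32.8% over all its windows. These lists differ in both protein and treatment.

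Few start codon windows were listed in most experiments. Of the 3897 windows, 2206 (56.6%) were in 1 list, 1512 in 2, 145 in 3, 26 in 4, 7 in 5 and 1 in all 6. The share found in a single list was 33.25% for arsenic cytoplasm, 37.9% for untreated cytoplasm, 19.98% for arsenic whole cells, 47.3% for untreated whole cells, 52.8% for CAPRIN and 11.8% for G3BP1. The window in all 6 belongs to EIF5A, the translation factor that carries hypusine (chr17:7309636-7309735, plus strand, coding exon). Its values were 3.90 and 5.38 in arsenic cytoplasm, 1.79 and 2.03 in untreated cytoplasm, 1.61 and 2.37 in arsenic whole cells, 2.24 and 2.79 in untreated whole cells, 1.67 and 2.06 for CAPRIN, and 2.11 to 2.96 over 3 replicates for G3BP1. Among the SNRNP200 lists, both arsenic cytoplasm replicates lie above all others. This is the direction of most windows: 96.5% of all those shared with untreated cytoplasm were higher in arsenic cytoplasm. Of all those shared with arsenic whole cells, 93.8% were higher in arsenic cytoplasm. Both shares cover only windows listed in both lists. The lowest listed mean was 1.92 in arsenic cytoplasm, 1.155 in untreated cytoplasm and 1.55 in arsenic whole cells. The part of these unlike lower bounds in the shares was not tested.

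The 7 windows in 5 lists belong to ACTG1 (gamma-actin), H4C3 (histone H4), HNRNPL (a splicing regulator), PA2G4 (a ribosome-associated growth regulator), RACK1, RPL18 and TUBB. HNRNPL (chr19:38845978-38846077, minus strand) had 4.33 and 5.78 in arsenic cytoplasm, 2.24 and 2.63 in arsenic whole cells, 2.12 and 3.66 in untreated whole cells and 3.97 and 4.23 for CAPRIN. TUBB (chr6:30722968-30723028, plus strand) had 2.91 and 3.11 in untreated whole cells, 5.32 and 5.79 for CAPRIN and 4.56 and 5.59 for G3BP1 beside its cytoplasmic values above. ACTG1 (chr17:81512255-81512354, minus strand) had 3.17 and 3.61 in arsenic cytoplasm, 1.58 and 1.66 in untreated cytoplasm, 1.25 and 1.30 in untreated whole cells and 3.77 and 4.70 for CAPRIN, and 2.18 to 3.11 over 3 replicates for G3BP1. The RACK1 window in 5 lists (chr5:181238128-181238227, minus strand) is not the one compared above: it was not listed in untreated cytoplasm and had 2.66 and 4.88 in arsenic cytoplasm, 1.76 and 2.56 in arsenic whole cells, and 3.05 and 3.05 in untreated whole cells. For HNRNPL and ACTG1 the arsenic cytoplasm values lie above every other SNRNP200 value of the same window. Most windows that arsenic cytoplasm shared with untreated cytoplasm or arsenic whole cells had the same direction. Reads of actin, tubulin and histone genes can also match near-identical copies.

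Other windows led single lists among those with at least 10 input reads. In arsenic cytoplasm these were TUBB, HOXB9 with 3.37 and 6.80, TMED2, a vesicle cargo receptor, with 4.47 and 5.70, HNRNPL and RPS15 with 4.18 and 5.85. In untreated cytoplasm they were JUN, TUBB, HNRNPA0 with 2.16 and 2.83, EIF4G1, the scaffold of the cap-binding complex, with 2.09 and 2.51, and LARP1, a regulator of ribosomal protein mRNAs, with 1.56 and 2.66. In arsenic whole cells RPS2 was followed by DDX18, a nucleolar helicase, with 3.23 and 7.34, NOP58, a box C/D snoRNP protein, with 3.91 and 6.52, STX16, a syntaxin, with 5.14 and 5.28, and CKS2, a cyclin-dependent kinase subunit, with 3.95 and 6.21. In untreated whole cells EIF4A2, an eIF4A helicase, had 4.80 and 6.16, RNPS1, an exon junction protein, 4.56 and 6.27, HMGN2, a nucleosome-binding protein, 4.60 and 5.43, and TSPAN3 3.94 and 5.74. For CAPRIN the leaders were H2AC18 with 5.14 and 5.86, H2AC19 with 4.90 and 5.52, RPL11 with 4.87 and 5.18, CYC1 and ACTG1. For G3BP1 they were ILF2, a double-stranded RNA-binding complex member, with 3.799 and 4.11 in the set with up to 2 replicates, and H2AC17, MCM4, H2AC13 and RAN in the other set.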

How the data were processed

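Each of 24 eCLIP libraries from HEK293 cells belongs to 1 of 12 groups of 2 (input or IP of 6 experiments), and the deposited tables give 1 list of windows per experiment. Reads were trimmed with fastp 0.11.5 and mapped with STAR 2.7.6, both named in the submitters' processing notes, without settings. Per window, the authors deposited IP and input read counts summed over replicates. They also deposited log2 enrichment of IP over input as the lowest, mean and highest replicate, the p-values and q-values of each window (every highest q was under 0.2), and the GC fraction of each window. Coordinates are in hg38. Since counts were summed over replicates, no count model was possible.

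Start codon windows were identified by chromosome, start, end and strand. The members, gene lists and alternatives were chosen with earlier results of these data known. For 5 pairs of lists, limma 3.58.1 (R 4.3.3) was run on the deposited log2 values of the 2 replicates in all windows found in both lists, without a variance trend, two-sided, with Benjamini-Hochberg adjustment over all of them and a threshold of 0.05; it was tested on simulated data with planted changes. Shares carry 95% exact binomial (Clopper-Pearson) intervals from SciPy 1.17.1 (Python 3.11.15, pandas 2.3.3), which cover counting error only. Of G3BP1, only the set with up to 2 replicates entered differences. Named windows are, per list, the 5 with the highest mean log2 value among those with at least 10 input reads; per comparison, the 5 with the largest and the 5 with the smallest difference among those with non-overlapping replicate ranges; those found in at least 5 lists; members of the gene lists with a start codon window in at least 3 lists, described as groups; and those of the immunoprecipitated proteins. The planned comparison of start codon context with all annotated start codons used the RefSeq promoter sequences instead. Alternatives were a stricter q, 1 window per gene, weighting by IP reads, minimum reads, lists of equal length, overlap of at least 50 bases, centring and a variance trend. One window that this rule names is not reported here.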

Additional observations from a re-analysis of the deposited data

Results flagged for a closer look

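In the G3BP1 list, 80 start codon windows were listed only in the set with values from up to 3 replicates, which enters no difference in the report. They were singled out because they carry signal outside the values compared. Of these, 28 were called in 3 replicates. Their median log2 enrichment was 2.52, between 1.41 and 4.22, with a median of 30.5 IP and 13 input reads and a median GC fraction of 0.62. The highest was H2AX, a histone H2A variant that is phosphorylated at DNA breaks, at 3.59 to 4.72 over 3 replicates with 39 IP and 3 input reads. H2AC17, at a mean of 3.76, and H2AC13, at 2.98, were also among them.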

How the results depend on the processing

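The share of start codon windows kept the order of arsenic over untreated cytoplasm under each alternative run. With windows weighted by IP reads it was 7.99% in arsenic and 2.565% in untreated cytoplasm, 1.87% in arsenic and 1.91% in untreated whole cells, 5.255% for CAPRIN and 3.65% for G3BP1. With at least 10 input and 20 IP reads it was 6.96%, 2.97%, 2.69%, 2.57%, 6.48% and 5.88% in the same order. With 1 window per gene it was 7.88% in arsenic cytoplasm, 3.11% in arsenic and 3.76% in untreated whole cells, 7.45% for CAPRIN and 6.60% for G3BP1. Whole cell shares were 1.28% with arsenic and 1.43% without at q under 0.05, and 1.26% and 1.09% in lists of equal length. A variance trend gave 8 calls in cytoplasm with and without arsenic. For CAPRIN against G3BP1, 0 of the start codon windows passed with minimum reads and 4 at q under 0.05. Centring gave a median difference of 0.20 for cytoplasmic arsenic against untreated and of -0.039 for arsenic cytoplasm against whole cells, which by construction removes the shift of all windows. At q under 0.05 the median for untreated cytoplasm against whole cells was 0.91 over only 2 start codon windows, and with minimum reads it turned to -0.50 over 12; the cause was not tested. For CAPRIN against G3BP1 it turned to 0.066 over 5 windows with minimum reads, and for whole cells with and without arsenic to 0.14 at q under 0.05. At that q cytoplasmic arsenic against untreated had no start codon window left there. Of the single windows named, 132 values kept their side of the threshold and 3 newly passed it, USP22 after centring and CD81 and H4C4 with a variance trend. Leaving out a replicate was not run. No paired analysis was possible because the deposited columns give a lowest and a highest replicate without numbers. Few input reads limit most windows, with a median of 2 for CAPRIN and 14 in arsenic cytoplasm.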
